A study of Drosophila melanogaster with 46 samples.

Results

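The 6 Hsp70 genes of Drosophila melanogaster lie in 2 clusters on chromosome 3R, with Hsp70Aa and Hsp70Ab at band 87A and Hsp70Ba, Hsp70Bbb, Hsp70Bb and Hsp70Bc at band 87C. They were taken by symbol, and all 6 were found among the 17796 genes of the main chromosome arms, of which 13935 are protein-coding. A peak was counted for a gene when it overlapped the gene's span extended by 10 kb on both sides. Of the 14902 peaks deposited for 4 chromatin proteins on these arms, 4 fell into these windows. At 87A 3 were peaks of CP190 in larvae, and at 87C 1 was a peak of Su(Hw) in adults.

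The peaks come from chromatin immunoprecipitation sequencing (ChIP-seq) of whole animals of the y1w1118 strain, in a study of 46 samples in 15 groups. The lists used are adult and larval CTCF (2 and 4 samples, precipitated through an HA tag), adult and larval Pita (2 and 2 samples), adult and larval Su(Hw) (2 and 2 samples), and larval CP190. The samples behind the CTCF, Pita and Su(Hw) lists carry the genotype label dCTCFwt and no heat shock is named for them. The name of the CP190 list gives no genotype, and 14 of the 18 CP190 samples are from larvae with mutations in the CP190-interacting domains of CTCF (dCTCFdeltaCP), alone or combined with SuHwdelta114, PitadeltaCP1 or both, so that list may include mutant larvae. The mutant CP190 samples are labelled with a rat antibody and the wild-type ones with a rabbit antibody. Each list joins its samples, so a peak has 1 value, no error between replicates and no known depth. Nothing below was tested between conditions, and all values are descriptions of these lists. Signal below the thresholds of the lists was not analysed here. Whole animals mix many cell types, so fewer cells with a bound site and less binding per cell cannot be told apart.

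Hsp70 is the main heat-inducible chaperone of the fly, and its genes form large puffs on polytene chromosomes after heat shock. At rest their promoters are held open by the GAGA factor with a paused RNA polymerase, and heat shock factor releases it. The 87A locus is a classic insulator model, since the elements scs and scs′ on its sides were among the earliest chromatin borders described in this species. Zw5 is known to bind scs and BEAF-32 to bind scs′, and CP190 is a cofactor without sequence specificity of its own that several insulator proteins recruit. CTCF, Pita and Su(Hw), with their arrays of C2H2 zinc fingers, are such recruiters. The positions of scs and scs′ are not in the files used here. They are placed below by their known neighbours, scs beside CG31211 and scs′ between CG3281 and aurA.

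The 87A pair lay between 2 CP190 peaks, and both sat where neighbouring genes meet. On the scs side a CP190 peak covered bases 11948998 to 11949734 of 3R (dm6), with its summit 99 bp from an end of Cad87A, a cadherin gene, and 452 bp from an end of CG31211. Its fold enrichment over the authors' control was 3.18, with a −log10 p of 20.2 and a −log10 q of 18.2. It covered 132 bp at the near end of Cad87A and 55 bp of CG31211, and filled the 550 bp between them. CG31211 itself ended 124 bp from Hsp70Aa, so the summit stood 4.93 kb from that Hsp70 gene and 9.31 kb from Hsp70Ab.

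On the scs′ side a CP190 peak of 4.23-fold covered bases 11962734 to 11963385, with a −log10 p of 36.3 and a −log10 q of 34.2. Its summit lay 34 bp from an end of aurA, the mitotic kinase Aurora A, and 285 bp from an end of CG3281. The 318 bp between these genes were entirely under the peak. CG3281 overlaps Hsp70Ab by 27 bp in the annotation, and the summit was 2.18 kb from Hsp70Ab and 6.55 kb from Hsp70Aa. The scs side is placed by CG31211 alone, and no peak lay between CG31211 and Hsp70Aa.

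Another CP190 peak stood outside that pair, at bases 11967245 to 11967963. It was the highest of the 3 at 6.22-fold, with a −log10 p of 73.4 and a −log10 q of 71.2. Its summit lay within CG12213, 67 bp from its end and 84 bp from an end of GC1, a mitochondrial glutamate carrier gene, which are 16 bp apart. It lay 6.71 kb from Hsp70Ab and was inside the window of that gene only. CP190 fold thus ran from lowest to highest from the scs side to CG12213.

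**Figure D1:**
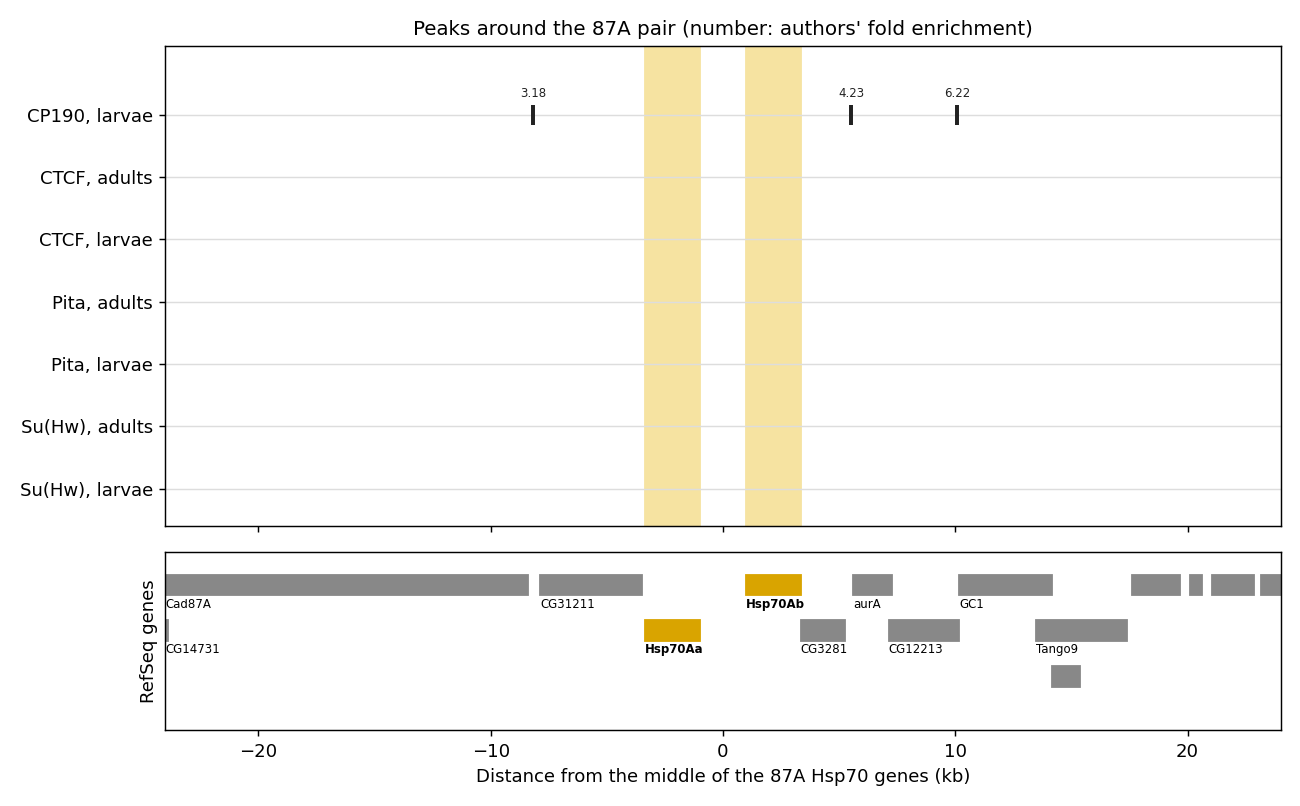
Peaks of the 7 lists (rows) by distance from the middle of the 87A pair in kb, each tick a peak with the authors' fold enrichment above it, and RefSeq genes below with the Hsp70 genes in yellow. Within the 24 kb drawn on either side, the CP190 row holds 3 peaks, of 3.18-, 4.23- and 6.22-fold, and the 6 rows of CTCF, Pita and Su(Hw) hold none.

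The 3 peaks were found in both input lists from which the CP190 list was made. The −log10 p values in the second and first input were 17.5 and 20.2 at Cad87A and CG31211, 43.9 and 36.3 at CG3281 and aurA, and 88.2 and 73.4 at CG12213 and GC1. The global irreproducible discovery rate (IDR), the estimated share of irreproducible peaks among those at least as reproducible, was 0.00174, 0.00151 and 0.00146 in the same order. Only the peak at CG12213 and GC1 was above the list's median −log10 q of 48.0.

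By fold the 3 peaks ranked 3130, 2451 and 1785 among 4220 CP190 peaks, so that 25.8%, 41.9% and 57.7% of the list was lower. None of the 3 overlapped a peak of the 6 C2H2 lists. The list holds 1897 such CP190 peaks (45.0%), with a median fold of 3.55 and quartiles of 2.76 and 5.09, against which 39.9%, 63.8% and 82.9% were lower than the 3 in turn. The 2 border peaks thus lay between these quartiles, and the peak at CG12213 lay above the upper one. All 3 summits were within 500 bp of an end of 2 protein-coding genes, which held for 56.6% of CP190 peaks without C2H2 peaks and for 40.5% of all CP190 peaks.

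**Figure D2:**
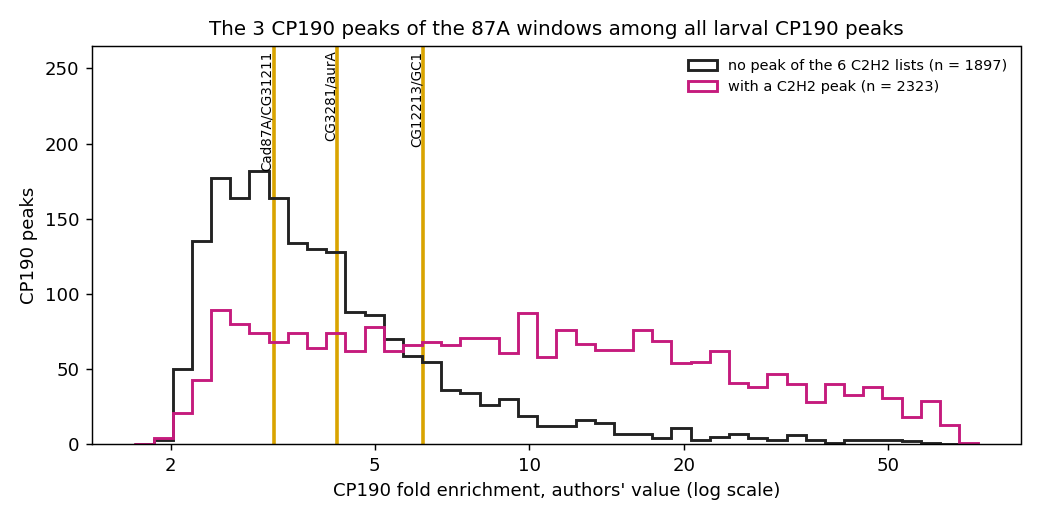
Number of CP190 peaks by the authors' fold enrichment (log axis), for peaks that overlap no peak of the 6 C2H2 lists (black, 1897) and those that do (magenta, 2323), with the 3 peaks of the 87A windows as yellow lines. The lines at 3.18 and 4.23 stand between the quartiles of the black distribution, and the line at 6.22 stands above its upper quartile of 5.09.

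The 2 border summits of 87A were 13.9 kb apart and the next pair 4.53 kb, against a median of 15.3 kb between neighbouring CP190 summits of the whole list. The interval free of CP190 between the border peaks, 13.0 kb long, held both Hsp70 genes whole, and 53.4% of all such CP190-free stretches were at least as long. Inside it no peak of any of the 7 lists was found, either on the Hsp70 genes or on the 1.99 kb between them.

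The nearest peak of CTCF, Pita or Su(Hw) to 87A was 34.5 kb away. The share of protein-coding genes at least as far as Hsp70Ab was 22.4% for adult and 20.2% for larval Su(Hw). It was 26.7% for adult and 4.9% for larval Pita, and 5.77% for adult and 4.15% for larval CTCF. The larval C2H2 lists together left 161 kb free around the pair, and the 6 lists of both stages left the same stretch. It was the 32nd longest of 5537 stretches free of all 6 lists, and stretches of at least its length held 3.53% of protein-coding genes. The median stretch was 12.7 kb long. Of the 22 protein-coding genes wholly inside it, 2 are the Hsp70 genes.

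The closest C2H2 peaks to 87A belonged to Su(Hw). Right of the pair Su(Hw) peaks lay in Tk, the tachykinin neuropeptide gene, 34.8 kb away in adults (13.1-fold) and 34.5 kb away in larvae (11.9-fold). A second Su(Hw) site at an end of Tk had 17.7-fold in adults and 29.4-fold in larvae and overlapped a CP190 peak of 2.71-fold. Left of the pair the nearest Su(Hw) peaks were inside CG6959, 120 kb away, with 17.4-fold in adults and 13.3-fold in larvae. The controls and depths behind the lists are not known, so folds of different lists are set side by side only.

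The nearest Pita and CTCF peaks were farther in kb, in lists that hold fewer peaks than those of Su(Hw). The nearest Pita peak was 49.4 kb away in adults, 32 bp from KLHL18 with 2.87-fold, and no larval Pita peak was nearer than 167 kb. On the left Pita bound near Lk6, a protein kinase gene, 189 kb away, with 86.6-fold in adults and 19.8-fold in larvae. The nearest CTCF peak lay 260 kb to the right near Rsbp15, with 83.5-fold in adults and 108-fold in larvae, on a CP190 peak. On the left CTCF was 288 kb away in adults and 287 kb away in larvae.

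The 87C cluster had no CP190 peak in any window. Its 4 genes span 46.0 kb, with Hsp70Ba separated by 34.7 kb from the other 3, which stand 936 bp apart, and the annotation places the noncoding alphagamma element RNA and 2 pseudogenes between them. The genes left of Hsp70Ba in its window, CG18549, trus, CG5961, Polr3C and CG5608, had no peak of any list on their spans. The CP190-free stretch around all 4 genes was 196 kb long, the 45th longest of 4214, and CP190-free stretches of at least this length held 4.05% of protein-coding genes. Distances to the nearest CP190 peak were 31.3 kb for Hsp70Ba, 68.4 kb for Hsp70Bbb, 71.6 kb for Hsp70Bb and 74.9 kb for Hsp70Bc. They were 4.43 kb for Hsp70Aa and 1.82 kb for Hsp70Ab.

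Among protein-coding genes 7.76% were at least as far from CP190 as Hsp70Ba, and 2.06% as far as Hsp70Bc, whereas 39.5% were as far as Hsp70Aa and 52.6% as far as Hsp70Ab. Genes of a cluster share their flanking CP190 peaks, so these distances compare 2 loci and not 6 separate genes. The nearest CP190 peak left of 87C stood between Aos1, a subunit of the SUMO-activating enzyme, and Srlp. It had 2.47-fold, below all but 8.22% of the list, and overlapped a larval Pita peak of 2.09-fold. On the right the nearest was 119 kb away, a 4.20-fold peak 43 bp from Not10, a subunit of the CCR4-NOT deadenylase complex, and 109 bp from Snx3, a sorting nexin.

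The sole peak in an 87C window was a weak one of Su(Hw) in adults. It covered bases 12521378 to 12521620 within Octbeta3R, an octopamine receptor gene whose span starts 108 bp from Hsp70Bc. Its fold was 2.79 and its −log10 p 10.9, and it ranked 3112 of 3115 peaks by fold. The −log10 p was 22.7 in the second and 10.9 in the first input list, and its IDR of 0.0436 was above the 0.01 that bounds 5 of the 7 lists. Only 84 bp of it reached into the window of Hsp70Bc, and its summit lay 32 bp outside, so with the summit rule, a flank of 5 kb or an IDR of at most 0.01 no window held it. No larval Su(Hw) peak overlapped it, and the nearest larval one was 56.5 kb from Hsp70Bc, inside Octbeta2R, with 3.12-fold. The larval Su(Hw) list holds only peaks with an IDR of at most 0.01. A peak with the IDR of this adult one could not enter it, so no difference between the stages can be read from this.

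**Figure D3:**
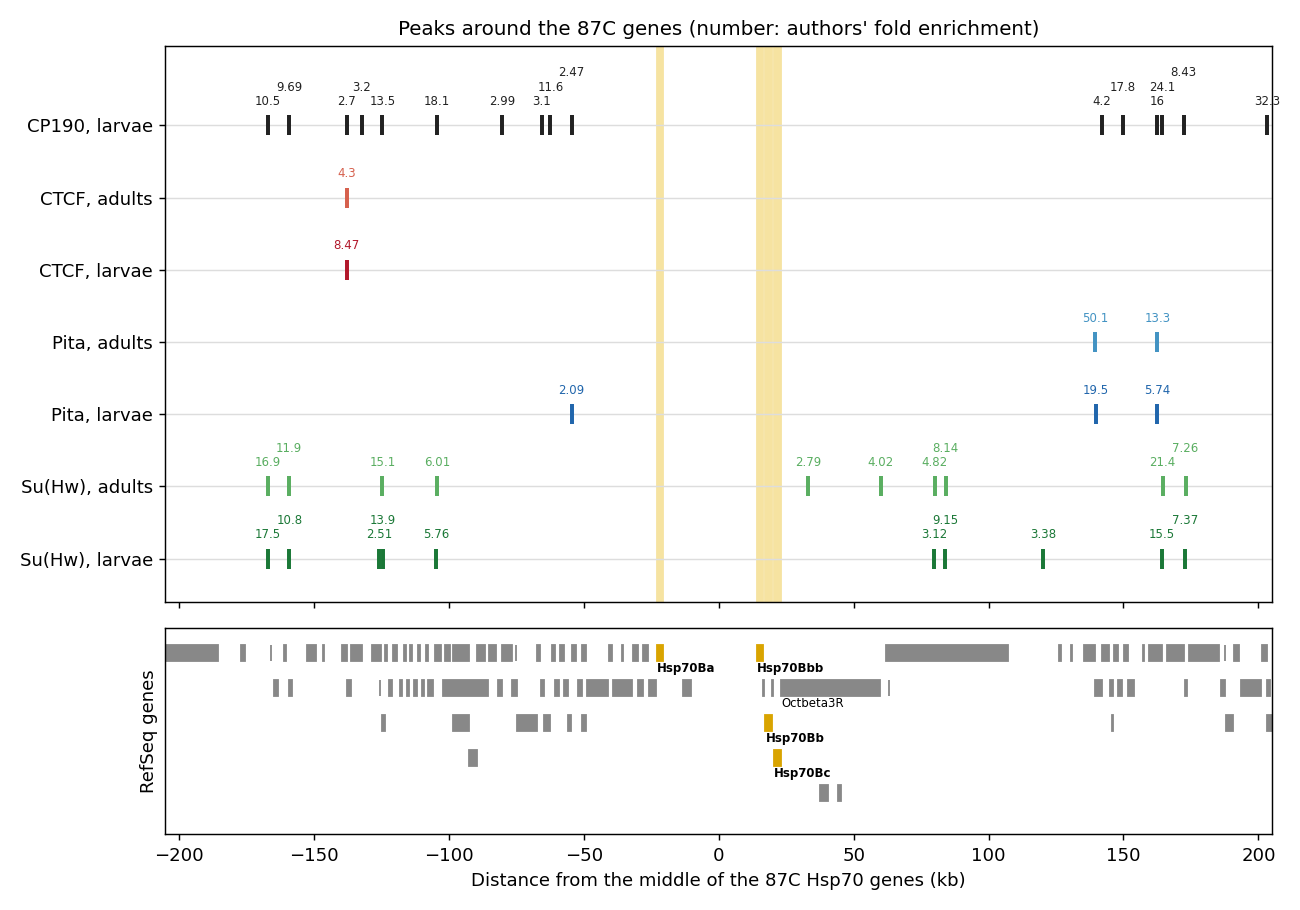
Peaks of the 7 lists (rows) by distance from the middle of the 87C genes in kb, each tick a peak with the authors' fold enrichment above it, and RefSeq genes below with the Hsp70 genes in yellow. No peak overlaps the Hsp70 genes, and between the CP190 peaks of 2.47- and 4.20-fold only Su(Hw) peaks and 1 pair of Pita peaks lie, all right of the cluster apart from the Pita peak at the left CP190 site.

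The stretch around 87C free of all 7 lists measured 87.2 kb, the 97th longest of 7411, with 15 protein-coding genes wholly inside. They include the 4 Hsp70 genes and Polr3C, an RNA polymerase III subunit gene. Stretches of at least that length held 4.61% of protein-coding genes. For 87A the stretch free of all 7 lists was 13.0 kb, against a median of 9.37 kb. The nearest Pita peaks right of 87C lay near Vha55, a proton pump subunit gene, 116 kb away, with 50.1-fold in adults and 19.5-fold in larvae. The nearest CTCF peaks were 115 kb to the left in adults (4.30-fold) and 114 kb to the left in larvae (8.47-fold), near CG10038.

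Counted by gene, CP190 was present in the windows of 2 of 6 Hsp70 genes, against 75.6% of all protein-coding genes. The windows of the Hsp70 genes were 22.3 to 22.4 kb long and the median over protein-coding genes was 22.2 kb. Adult CTCF (14.5% of all protein-coding genes), larval CTCF (17.6%), adult Pita (34.6%), larval Pita (30.4%) and larval Su(Hw) (42.5%) were present at 0 of 6. Adult Su(Hw) was present at 1 of 6, against 40.5%. The 6 genes share windows within a cluster and stand for 2 loci, so these counts are few and were not tested.

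CP190 without any of the 6 C2H2 lists was the pattern of both 87A genes and of 16.5% of protein-coding genes. None of the 7 lists was present at Hsp70Ba, Hsp70Bbb and Hsp70Bb, the pattern of 14.1% of protein-coding genes. Hsp70Bc, with adult Su(Hw) and nothing else, shared its pattern with 0.373%. That pattern rests on 1 weak peak with its summit outside the window. With the summit rule, a flank of 5 kb or an IDR of at most 0.01, Hsp70Bc too had none of the 7 lists. No Hsp70 gene had a peak summit within 500 bp of either end in any list, against 35.7% of protein-coding genes that had one in at least 1 list. The Hsp70 copies are near-identical in sequence and how reads with several matches were treated is not stated in the labels or files, so reads of the copies cannot be told apart. The lack of a peak on the genes themselves is therefore uncertain, and whether it comes from such reads was not tested. The same limit holds for any other repeated sequence in the windows and peak-free stretches, which was not looked for.

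**Figure D4:**
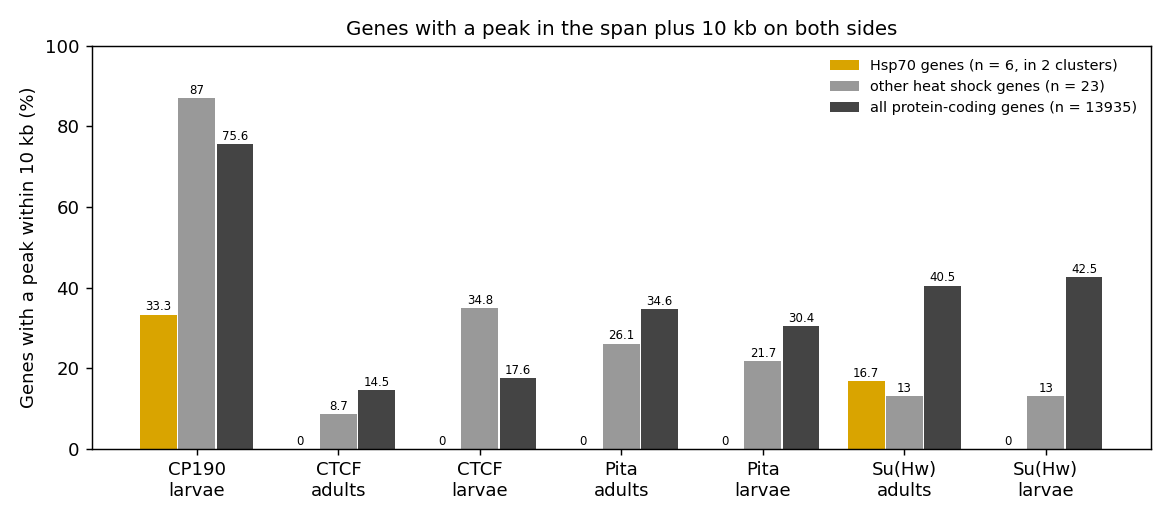
Percent of genes with a peak within their span plus 10 kb on both sides, by list, for the 6 Hsp70 genes (yellow), 23 other heat shock genes (light grey) and all 13935 protein-coding genes (dark grey). Hsp70 genes reach 33.3% for CP190 and 16.7% for adult Su(Hw), and 0 in the other 5 lists.

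Over the 505 kb between the clusters, peaks of all lists were present. CP190 had 15, adult and larval Su(Hw) 12 and 13, adult and larval CTCF 2 and 2, and adult and larval Pita 2 and 3. No background was counted for stretches of this length, so these numbers do not show whether the interval is rich or poor in peaks. The highest CP190 peak there, of 32.0-fold, stood 197 bp from CG4702 with no C2H2 peak. All Pita peaks in this interval were low, at most 4.59-fold in adults and 2.38-fold in larvae.

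The other heat shock and chaperone genes, 23 in a list chosen with earlier results of these data known, lay at most 14.3 kb from a CP190 peak. All were nearer than any of the 4 genes of 87C. Only 7.76% of protein-coding genes were at least as far as Hsp70Ba, the nearest of these 4. Of the 23 genes, 8 lay farther from CP190 than both 87A genes, and 39.5% of protein-coding genes were at least as far as Hsp70Aa. The 23 include 7 genes of 1 cluster at band 67B. CP190 was present in the windows of 2 of 6 Hsp70 genes and of 20 of these 23 genes, against 75.6% of all protein-coding genes. At gene ends, 0 of 6 Hsp70 genes and 10 of 23 listed genes had a CP190 summit within 500 bp, against 31.2% of protein-coding genes. Each of the 7 other genes of the Hsp70 family had a CP190 peak within 10 kb. These are heat-inducible Hsp68, the constitutive cognates Hsc70-1 to Hsc70-5 and Hsc70Cb, listed as Hsp110.

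Among the family, Hsc70-4 (4.38-fold), Hsc70-5 (3.48-fold) and Hsc70Cb (3.20-fold) had a CP190 summit at a gene end. Hsp68, 0.729 kb from CP190, was the family member with Pita on its span at both stages. Of the other chaperones Hsp83, the fly Hsp90, had CP190 at 6.44-fold, Hsp60A, the mitochondrial chaperonin, at 4.99-fold, and the J-domain genes DnaJ-1, Droj2 and mrj at 20.0-, 8.50- and 12.3-fold. Hop, listed as Stip1, which links Hsp70 with Hsp90, had CP190 at 11.3-fold with Pita at 26.9-fold in adults and 10.5-fold in larvae. Pita had a summit at the ends of 0 of 6 Hsp70 genes and of 2 of the 23 at both stages, against 9.39% of protein-coding genes in adults and 8.53% in larvae. At mrj a Pita summit at a gene end had 2.76-fold in adults and 2.07-fold in larvae.

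CTCF had a summit within 500 bp of the ends of 0 of 6 Hsp70 genes and of 2 of the 23 at both stages, against 3.06% of protein-coding genes in adults and 3.79% in larvae. At DnaJ-1 it had 23.6-fold in adults and 23.5-fold in larvae. At lncRNA:Hsromega, the noncoding RNA of another major heat shock puff, it had 33.9-fold in adults and 32.8-fold in larvae, with CP190 at 32.5-fold. The 7 small heat shock genes at band 67B, within 14.2 kb of 3L, are the other heat shock cluster. The genes were 3.88 to 14.3 kb from their nearest CP190 peak, and a CP190 peak of 2.79-fold stood beside the cluster at Klp67A, a kinesin gene. A larval CTCF peak of 3.89-fold lay within Hsp27, with no adult CTCF peak on it, and reached the windows of 6 of these 7 genes. By windows, adult and larval CTCF were present at 0 of 6 Hsp70 genes and at 2 and 8 of the 23 listed genes. The shares of protein-coding genes were 14.5% and 17.6%. Adult and larval Su(Hw) had a peak in the windows of 1 and 0 of 6 Hsp70 genes and of 3 and 3 of the 23 listed genes, against 40.5% and 42.5% of protein-coding genes.

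**Figure D5:**
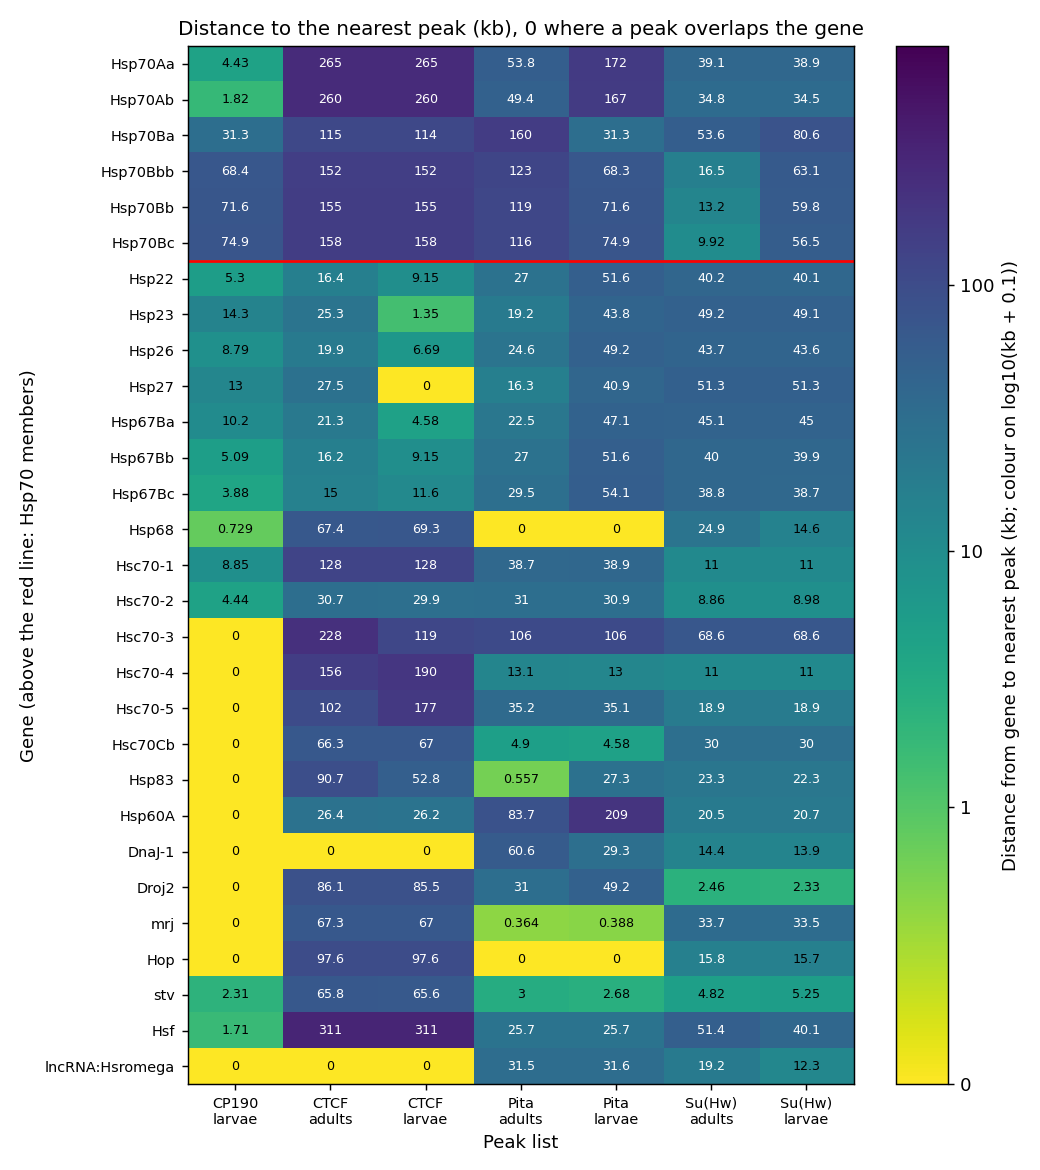
Distance in kb from each gene (rows, Hsp70 genes above the red line, 23 other heat shock genes below it) to the nearest peak of each list (columns), with 0 where a peak overlaps the gene and colour on a log10 scale. The 87A genes are 4.43 and 1.82 kb from CP190, the 87C genes 31.3 to 74.9 kb, and every gene below the line at most 14.3 kb from CP190.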

How the data were processed

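The authors deposited 7 peak lists, each with 20 columns as an IDR run on 2 inputs writes them. Per the submitters' processing notes, reads were handled on build dm6 with MACS2, Bowtie2, deepTools, Picard, cutadapt and bedtools, in unstated roles and versions. The deposited columns used were fold enrichment (ratio to an unnamed control), −log10 p and −log10 q of each peak, its −log10 p in either input and the −log10 IDR. A deposited score, a scaled IDR, was left aside. Depth per sample is unknown.

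Gene spans came from RefSeq (Release 6 plus ISO1 MT, the dm6 assembly), without strand. A peak counted for a gene when it overlapped the span plus 10 kb by at least 1 bp, leaving out sequences other than the X, Y, 4 and the arms of 2 and 3. The background is the percent of protein-coding genes that meet the same rule. Python 3.11.15, numpy 2.4.6 and pandas 2.3.3 were used, and the counting was checked against a slower count. The members and gene lists were chosen with earlier results of these data known. All 6 members, the genes in their windows, the 3 genes known at scs and scs′, and listed heat shock genes with a summit within 500 bp of an end are named, and further genes were named as nearest to a peak described. Hsp67Bb, Hsc70Cb and Hop were matched through synonyms (CG4456, Hsp110, Stip1). Settings varied were the flank, the summit rule, a −log10 q minimum, the joining of peaks and, added after seeing the data, an IDR maximum and counting by cluster. The sequence words planned for promoters were not searched, as no sequence was used here.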

Additional observations from a re-analysis of the deposited data

How the results depend on the processing

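The text rests on counts in windows. The zero counts of adult and larval CTCF, adult and larval Pita and larval Su(Hw) also held with a flank of 20 kb. The smaller flanks and the summit, significance, IDR and cluster settings cannot raise a count, so zeros there were fixed in advance. CP190 at members stayed at 2 with flanks of 5 and 20 kb and with the summit rule. The number of CP190 peaks was 3 with a flank of 20 kb and with the summit rule. With a flank of 5 kb it was 2, as the peak at CG12213 and GC1 fell outside. An IDR of at most 0.01 could not change the CP190 counts of members or peaks, since every peak of the CP190 list meets it. The CP190 count was 0 members and 0 peaks with a flank of 0 kb. It was 1 member and 1 peak at or above the median −log10 q, and 1 when clusters were counted once each. Adult Su(Hw) was 0 members and 0 peaks with flanks of 0 and 5 kb, with the summit rule, at or above the median −log10 q and with an IDR of at most 0.01, and 3 members with a flank of 20 kb. Joining by 0.5 of the shorter peak or by summits within 200 bp kept 4 sites. The percent of protein-coding genes with a peak at flanks of 5 and 20 kb was 62.5 and 86.9 for CP190, 10.2 and 23.2 for adult CTCF, 12.3 and 27.2 for larval CTCF, 25.0 and 48.9 for adult Pita, 22.0 and 43.8 for larval Pita, 27.3 and 60.3 for adult Su(Hw), and 28.9 and 63.3 for larval Su(Hw), since wider windows hold more peaks. No paired analysis was possible because each list joins its replicates with 1 value per peak, and for the same reason no replicate could be left out.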
